A study of Mus musculus with 9 samples.

Results

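Transcript levels of 36 genes of nucleotide, folate and polyamine synthesis were examined in a mouse B-cell lymphoma after brief inhibition of the BET bromodomain proteins. The genes were taken from a fixed list of symbols and matched to the Ensembl identifiers of the count table through the GENCODE M21 annotation. All 36 had a row among the 43629 gene rows, and all 36 passed the filter on low counts that left 11002 genes for testing. They comprised 4 genes of pyrimidine synthesis, 12 of purine synthesis, 6 of deoxynucleotide supply, 2 nucleoside diphosphate kinases, 5 genes of folate one-carbon metabolism, 4 of polyamine synthesis and 3 of the methionine cycle.

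The cells were Eµ-Myc lymphoma cells of clone 4242, which carry a Myc transgene under the immunoglobulin heavy chain enhancer and were kept in culture. One group received 1 µM JQ1, one received 2.5 µM RG6146 and the control group received DMSO, the solvent, each for 2 h and in 3 libraries. JQ1 and RG6146 are both inhibitors of BET bromodomain proteins, which bind acetylated histones at active genes. All groups carry the same transgene and derive from 1 clone, so the p-values measure the spread between replicate libraries of that clone and not between tumours. The sample titles number the replicates and do not say whether they were separate cultures.

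Purine and pyrimidine nucleotides are built from amino acids, ribose phosphate, bicarbonate and one-carbon units carried on folate, and deoxynucleotides are then made from ribonucleotides for DNA replication. Polyamines are small cations made from ornithine, with propylamine groups taken from S-adenosylmethionine, which links them to the methionine cycle. These pathways are active in dividing lymphoid cells, their enzymes are the targets of classical antimetabolite drugs, and several of their genes, among them Odc1 and Cad, are long-known targets of MYC, a transcription factor that binds the E-box CACGTG.

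Total gene counts were 3964732 to 5031717 in JQ1 libraries, 3947240 to 4609612 in RG6146 libraries and 3410161 to 5003725 in DMSO libraries. Levels are given as CPM, counts of 3′ tags scaled to library size, corrected for library composition by TMM. A 3′ tag method gives about 1 read per transcript, so levels were not divided by transcript length. All 13 B-cell markers had counts, and their summed level, in CPM of total gene counts without TMM, was 1040 to 1080 CPM in JQ1 libraries and 1040 to 1200 CPM in RG6146 libraries, against 1650 to 1840 CPM in DMSO libraries. The 11 myeloid markers summed to 57.3 to 279 CPM in JQ1 libraries, 86.6 to 127 CPM in RG6146 libraries and 161 to 765 CPM in DMSO libraries, with the highest sum in DMSO library 2. The 9 stromal and endothelial markers summed to 5.55 to 10.7 CPM with JQ1, 7.85 to 11.6 CPM with RG6146 and 26.6 to 34.9 CPM with DMSO, and Dcn was at 0. T and NK cell markers, with Trac and Ncr1 at 0, stayed at or below 3.47 CPM in every library, and erythroid markers at or below 19.2 CPM. Transcripts of the mitochondrial genome in the marker list summed to 7240 to 14500 CPM with JQ1, 13500 to 14400 CPM with RG6146 and 11600 to 15600 CPM with DMSO. Whether these sums bear on the genes described here was not tested beyond leaving out libraries, and in bulk RNA fewer cells of a type and less RNA per cell cannot be told apart.

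Hexim1, a BET inhibitor response gene, rose in both treatments, by 1.55 ± 0.07 on the log2 scale under JQ1 and by 1.46 ± 0.07 under RG6146 (± SE; adjusted p = 6.3e-11 and 1.2e-10, edgeR's quasi-likelihood test with Benjamini-Hochberg adjustment over all tested genes). Myc, whose row does not separate the transgene from the endogenous gene, had 128, 173 and 154 CPM in JQ1 libraries and 200, 177 and 207 CPM in RG6146 libraries, against 125, 113 and 103 CPM in DMSO libraries. Its 3′ tags were thus higher in both treatments at this time, by 0.42 ± 0.11 under JQ1 and 0.78 ± 0.11 under RG6146 (adjusted p = 0.00818 and 5.9e-05).

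The promoters of 5 members are shown. Slc19a1 is the member with the largest fall, and Amd1 and Odc1 are the abundant polyamine genes that rose. Impdh2 and Tyms were taken as the called members with an E-box in this window, so the 5 do not show how common the motif is. Impdh1, the member with the largest rise, is not shown, and its windows did not hold CACGTG. Each run holds 250 bases before and 50 bases after a RefSeq transcription start in GRCm38.p6, written 5′ to 3′ on the gene's strand, and capitals mark CACGTG, which reads the same on both strands. The Slc19a1 window lies at chr10:77032489-77032788 on the plus strand, and is the more upstream of 2 RefSeq windows of that gene. The others lie at chr10:40302139-40302438 (Amd1, minus strand), chr12:17544623-17544922 (Odc1, plus strand), chr9:108560186-108560485 (Impdh2, plus strand) and chr5:30073576-30073875 (Tyms, minus strand).
Slc19a1: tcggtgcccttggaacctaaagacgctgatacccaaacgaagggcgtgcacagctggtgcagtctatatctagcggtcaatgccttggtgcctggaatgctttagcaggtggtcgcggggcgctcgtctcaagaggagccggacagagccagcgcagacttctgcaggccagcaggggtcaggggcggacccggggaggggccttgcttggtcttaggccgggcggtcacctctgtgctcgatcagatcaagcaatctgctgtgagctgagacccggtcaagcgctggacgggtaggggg
Amd1: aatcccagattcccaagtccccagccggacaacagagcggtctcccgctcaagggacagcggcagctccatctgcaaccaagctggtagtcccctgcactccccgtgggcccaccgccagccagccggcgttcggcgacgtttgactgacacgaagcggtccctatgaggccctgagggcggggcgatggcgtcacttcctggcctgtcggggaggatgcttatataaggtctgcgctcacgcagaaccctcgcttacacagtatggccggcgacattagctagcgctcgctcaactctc
Odc1: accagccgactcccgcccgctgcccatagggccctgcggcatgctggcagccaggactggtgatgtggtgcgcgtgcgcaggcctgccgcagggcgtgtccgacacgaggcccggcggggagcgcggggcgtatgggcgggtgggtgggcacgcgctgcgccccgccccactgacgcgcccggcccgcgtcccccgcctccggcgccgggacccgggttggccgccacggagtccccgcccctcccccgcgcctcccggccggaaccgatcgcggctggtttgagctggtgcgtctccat
Impdh2: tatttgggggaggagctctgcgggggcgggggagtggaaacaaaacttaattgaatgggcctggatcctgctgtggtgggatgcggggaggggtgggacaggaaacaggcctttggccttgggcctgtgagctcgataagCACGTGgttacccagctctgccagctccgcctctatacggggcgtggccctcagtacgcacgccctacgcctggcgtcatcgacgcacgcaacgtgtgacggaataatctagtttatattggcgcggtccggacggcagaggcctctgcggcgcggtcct
Tyms: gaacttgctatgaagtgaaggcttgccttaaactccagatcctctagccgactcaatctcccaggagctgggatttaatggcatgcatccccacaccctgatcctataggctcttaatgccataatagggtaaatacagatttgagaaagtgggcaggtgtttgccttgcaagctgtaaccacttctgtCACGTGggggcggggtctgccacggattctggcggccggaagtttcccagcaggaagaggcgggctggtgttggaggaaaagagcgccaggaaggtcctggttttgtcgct

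RefSeq windows of this kind were at hand for 33 of the 36 members, and not for Dhodh, Pfas and Srm. CACGTG was found in 6 of the 33 (18.2%), namely Atic, Impdh2, Nme1, Paics, Sms and Tyms. The share was 8.91% of the 17492 protein-coding genes with such windows and 8.09% of all 27025 genes with them. Of those 6 genes, Impdh2 rose in both treatments, Tyms fell under RG6146, and Atic, Nme1, Paics and Sms passed the test in neither comparison. The Slc19a1, Amd1, Odc1 and Cad windows did not hold these 6 letters. Sequence outside the windows, such as the rest of each gene, was not searched, so a gene without a match may still hold the motif. A match describes the sequence only, and no binding was measured.

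In DMSO libraries the median level of the members was 98.4 CPM, against 20.0 CPM for all tested genes, and 35 of the 36 lay above that median of all genes. The lowest was Impdh1 at 15.3 CPM and the highest Nme2 at 608 CPM. The coefficient of variation over the 3 DMSO libraries had a median of 5.85% for members and 11.9% for all tested genes.

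With JQ1, 9 of the 36 members passed the test, 6 higher and 3 lower than with DMSO. Over all tested genes 29.0% passed, 13.6% higher and 15.4% lower, so the members' share of 25.0% was near the background and is not a result about these pathways as a whole. With RG6146, 9 members passed as well, 6 higher and 3 lower, against 26.0% of all genes, of which 12.5% were higher and 13.5% lower. The median log2 fold change of the 36 was 0.02 with JQ1 and -0.01 with RG6146, beside 0.00 and 0.01 for all tested genes. The comparisons share the DMSO libraries, so their values are given side by side and the overlap is no independent evidence. Impdh1, Impdh2, Rrm2, Odc1, Amd1 and Mat2a rose and Slc19a1 and Srm fell in both. Umps passed, lower, in the JQ1 comparison alone, and Tyms, lower, in the RG6146 comparison alone. The count of 3 lower became 1 with JQ1 when JQ1 library 2 or 3 was left out, and 1 with RG6146 when RG6146 library 1 was left out.

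The other 26 members passed in neither comparison. Their log2 fold changes lay between -0.34 and 0.29 with JQ1 and between -0.36 and 0.28 with RG6146, and for 22 of the 26 both 95% intervals stayed inside a change of 1.5-fold. For those 22, a larger change in either direction lay outside the interval of both comparisons.

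**Figure D1:**
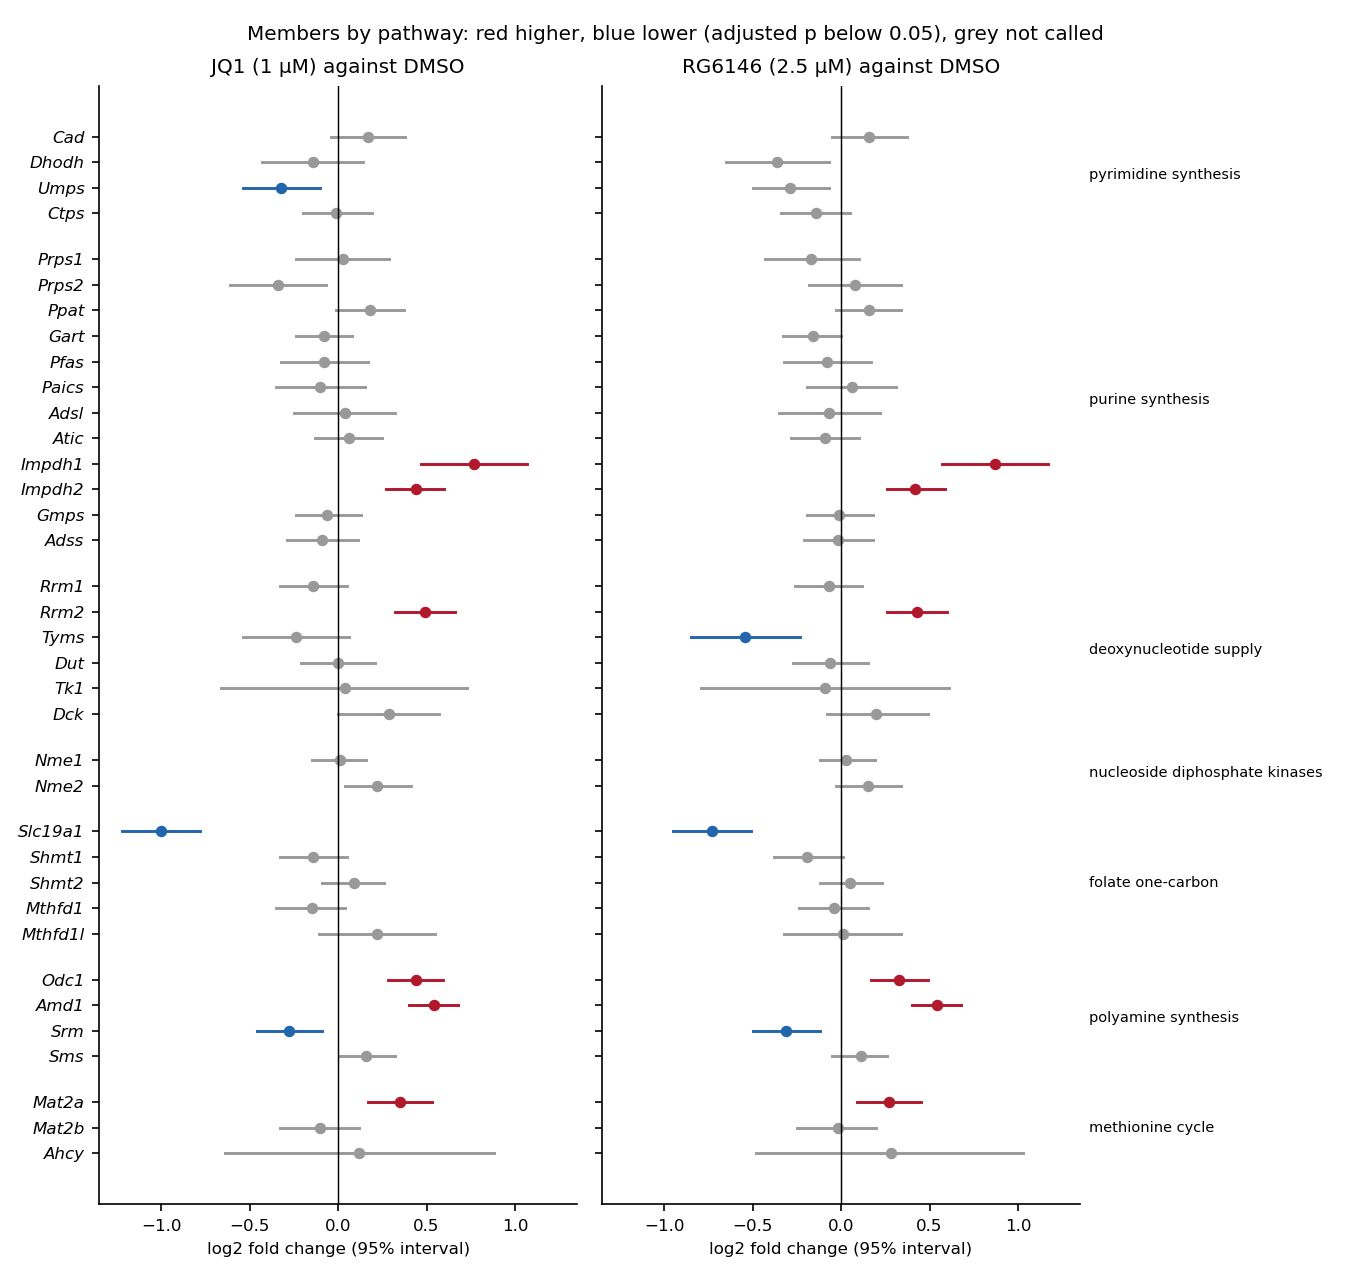
Log2 fold change of each of the 36 members with its 95% interval, for JQ1 (left) and RG6146 (right) against DMSO, grouped by pathway; red marks genes higher and blue genes lower at an adjusted p below 0.05, grey the rest. Slc19a1 lies farthest to the left in both panels, at -1.00 and -0.73, and Impdh1 farthest to the right, at 0.77 and 0.87.

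Pyrimidine synthesis showed small differences only. Umps (ENSMUSG00000022814, chr16:33954782-33967038, minus strand), the bifunctional enzyme that makes UMP from orotate, had 56.8, 48.6 and 55.2 CPM in JQ1 libraries and 55.7, 56.2 and 53.0 CPM in RG6146 libraries, against 61.1, 64.0 and 76.0 CPM in DMSO libraries. Every treated library lay below every DMSO library, and DMSO library 3 was the highest. The log2 fold change was -0.32 ± 0.10 with JQ1 (adjusted p = 0.0264) and -0.29 ± 0.10 with RG6146, which missed the threshold (adjusted p = 0.0512). The JQ1 call was lost without DMSO library 3 (-0.22, adjusted p = 0.144), JQ1 library 2 (-0.26, adjusted p = 0.101) or JQ1 library 3 (-0.34, adjusted p = 0.0502), and with DESeq2 (adjusted p = 0.0939). The RG6146 value of Umps passed in 4 of the 20 alternatives. These were library size scaling (adjusted p = 0.0100), a mean of at least 10 CPM (adjusted p = 0.0295), and leaving out DMSO library 1 (adjusted p = 0.0322) or JQ1 library 2 (adjusted p = 0.0440). The difference between the compounds for Umps was 0.04 (95% interval -0.18 to 0.26), so its 2 outcomes were not shown to differ.

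Ctps, the CTP synthetase and the pyrimidine gene with the highest mean level, had 78.0, 71.8 and 68.5 CPM in JQ1 libraries and 67.2, 61.3 and 69.7 CPM in RG6146 libraries, against 70.4, 76.8 and 72.1 CPM in DMSO libraries. Its log2 fold change was -0.01 ± 0.09 with JQ1 and -0.14 ± 0.09 with RG6146, and neither passed (adjusted p = 0.974 and 0.270). Cad, whose protein carries the first 3 activities of the pathway, averaged 71.6 ± 8.25 CPM with JQ1 and 71.3 ± 2.52 CPM with RG6146, against 63.8 ± 4.01 CPM with DMSO (SD, n = 3 each). Its log2 fold changes of 0.17 and 0.16 did not pass (adjusted p = 0.226 and 0.258). Dhodh, the mitochondrial dihydroorotate dehydrogenase, had 19.7, 20.2 and 19.3 CPM in JQ1 libraries and 14.8, 17.1 and 19.0 CPM in RG6146 libraries, against 21.4, 21.8 and 22.2 CPM in DMSO libraries. All 6 treated libraries lay below the DMSO libraries, but the log2 fold changes of -0.14 ± 0.14 and -0.36 ± 0.14 missed the threshold (adjusted p = 0.475 and 0.0645). The Dhodh value with RG6146 passed in 5 of the 20 alternatives. It was -0.45 without RG6146 library 3 (adjusted p = 0.0460) and -0.47 with library size scaling (adjusted p = 0.0183). It also passed with limma-voom (adjusted p = 0.0435), a mean of at least 10 CPM (adjusted p = 0.0389) and no robust moderation (adjusted p = 0.0452).

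In purine synthesis 2 of 12 genes passed in each comparison (16.7%), below the 29.0% of all tested genes with JQ1 and the 26.0% with RG6146. The 2 were the IMP dehydrogenases, which catalyse the first step from IMP towards GMP. Impdh1 (ENSMUSG00000003500, chr6:29200434-29216364, minus strand) had 24.3, 27.7 and 27.1 CPM in JQ1 libraries and 28.4, 28.7 and 27.4 CPM in RG6146 libraries, against 18.4, 14.7 and 12.9 CPM in DMSO libraries. All treated libraries were above all DMSO libraries, by 0.77 ± 0.14 on the log2 scale with JQ1, 1.71-fold, and 0.87 ± 0.14 with RG6146, 1.83-fold (adjusted p = 5.5e-04 and 2.0e-04). This is the least abundant member under DMSO, and its call held in each of the 20 alternative analyses of both comparisons.

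Impdh2 (ENSMUSG00000062867, chr9:108560286-108565584, plus strand), the more abundant isozyme, had 410, 348 and 380 CPM in JQ1 libraries and 403, 370 and 353 CPM in RG6146 libraries, against 285, 289 and 266 CPM in DMSO libraries. The groups did not overlap, and the log2 fold change was 0.44 ± 0.08 with JQ1 and 0.42 ± 0.08 with RG6146 (adjusted p = 4.3e-04 and 6.6e-04). Impdh2 has the highest mean level of the purine genes. Of the 75-base stretches in its last 400 transcript bases, 87.7% also occur in the pseudogene Impdh2-ps, but that row held 579 counts over the 9 libraries against 13334 for Impdh2. Adding them left the log2 fold changes at 0.44 and 0.41 (adjusted p = 4.0e-04 and 7.4e-04). Under scaling by ERCC spike-in counts alone they were 0.43 and 0.44, each with a standard error of 0.23, and did not pass (adjusted p = 0.278 and 0.270).

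The other 10 purine genes passed in neither comparison. Ppat, the committing amidotransferase of the pathway, averaged 99.7 ± 7.94 CPM with JQ1 and 97.9 ± 8.29 CPM with RG6146, against 87.9 ± 1.44 CPM with DMSO, for log2 fold changes of 0.18 and 0.16 (adjusted p = 0.139 and 0.218). Gart, Pfas, Paics, Adsl and Atic, which carry the following steps to IMP, had log2 fold changes of -0.08, -0.08, -0.10, 0.04 and 0.06 with JQ1, and of -0.16, -0.08, 0.06, -0.07 and -0.09 with RG6146. Gmps, which makes GMP, and Adss, of the branch to AMP, lay at -0.06 and -0.09 with JQ1 and at -0.01 and -0.02 with RG6146. The increase of the IMP dehydrogenases was thus not accompanied by a called change in the steps before them or in Gmps after them. The row of the antisense gene Gm15964 at the 3′ end of Gart held 3954 counts against 5346 for Gart, and the pseudogene Gm16585 within Adss 4225 against 4019, so with the strand setting unknown these levels are uncertain.

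Prps1 and Prps2 encode the phosphoribosyl pyrophosphate synthetases, which supply the ribose phosphate. Prps1 had log2 fold changes of 0.03 ± 0.12 with JQ1 and -0.17 ± 0.12 with RG6146. Prps2 had 27.7, 27.5 and 25.5 CPM in JQ1 libraries and 34.1, 41.8 and 32.2 CPM in RG6146 libraries, against 38.0, 30.9 and 33.0 CPM in DMSO libraries. The JQ1 libraries were the 3 lowest, while the RG6146 and DMSO libraries overlapped. With JQ1 the Prps2 value of -0.34 ± 0.13 missed the threshold (adjusted p = 0.0523), and it passed in 5 of the 20 alternatives. It passed without DMSO library 2 (-0.40, adjusted p = 0.0449), RG6146 library 2 (-0.34, adjusted p = 0.0429) or RG6146 library 3 (-0.34, adjusted p = 0.0473). The others were library size scaling (-0.47, adjusted p = 0.0114) and a mean of at least 10 CPM (-0.37, adjusted p = 0.0295).

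Deoxynucleotide supply split between members. Rrm2 (ENSMUSG00000020649, chr12:24708241-24714146, plus strand), the regulated small subunit of ribonucleotide reductase, had 119, 136 and 122 CPM in JQ1 libraries and 119, 121 and 123 CPM in RG6146 libraries, against 86.2, 88.9 and 93.6 CPM in DMSO libraries. It rose by 0.49 ± 0.08 with JQ1 and 0.43 ± 0.08 with RG6146 (adjusted p = 1.8e-04 and 6.4e-04), with no overlap of treated and DMSO libraries. Under ERCC scaling alone the values were 0.47 and 0.46, each with a standard error of 0.23, and did not pass (adjusted p = 0.209 and 0.250). Its partner Rrm1, the large subunit, averaged 161 ± 5.83 CPM with JQ1 and 170 ± 22.8 CPM with RG6146, against 178 ± 7.90 CPM with DMSO. The log2 fold changes of Rrm1, -0.14 ± 0.09 and -0.07 ± 0.09, did not pass (adjusted p = 0.253 and 0.636).

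Tyms (ENSMUSG00000025747, chr5:30058202-30073617, minus strand), the thymidylate synthase that uses a folate cofactor to make dTMP, had 19.3, 22.3 and 16.9 CPM in JQ1 libraries and 14.3, 16.9 and 16.3 CPM in RG6146 libraries, against 21.7, 24.1 and 23.4 CPM in DMSO libraries. The RG6146 libraries all lay below the DMSO libraries, whereas JQ1 library 2 lay within the DMSO range. Tyms fell by 0.54 on the log2 scale with RG6146 (SE 0.15, adjusted p = 0.0102), and the JQ1 value of -0.24 ± 0.14 did not pass (adjusted p = 0.234). The difference between the compounds, -0.30 with a 95% interval of -0.61 to 0.01, did not pass either, so a fall particular to RG6146 was not shown. Without RG6146 library 1 the value was -0.47 and missed the threshold (adjusted p = 0.0519), and DESeq2 gave an adjusted p of 0.0724.

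Dut, the dUTPase and the most abundant gene of this group, had 304, 263 and 269 CPM in JQ1 libraries and 266, 238 and 300 CPM in RG6146 libraries, against 244, 297 and 298 CPM in DMSO libraries. The groups overlapped, and the log2 fold changes were 0.00 ± 0.10 and -0.06 ± 0.10. Dck, the deoxycytidine kinase of the salvage route, had log2 fold changes of 0.29 ± 0.14 and 0.20 ± 0.14 (adjusted p = 0.125 and 0.298). Tk1, the S-phase thymidine kinase, had 19.5, 23.0 and 26.8 CPM in JQ1 libraries and 20.0, 22.9 and 20.4 CPM in RG6146 libraries, against 15.9, 16.4 and 35.1 CPM in DMSO libraries. DMSO library 3 alone was above all treated libraries, and the other DMSO libraries were below them all. The Tk1 log2 fold changes of 0.04 ± 0.30 and -0.09 ± 0.30 became 0.51 (adjusted p = 0.0349) and 0.38 (adjusted p = 0.120) without that library. Gm20708, a gene on the opposite strand at the 3′ end of Tk1, rose by 1.92 and 1.84 but held only 247 counts against 852 for Tk1.

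Of 20 S phase genes listed beside this group, 2 rose and 1 fell with JQ1 (15.0%), and 3 rose and 1 fell with RG6146 (20.0%), below the share over all genes in each comparison. Slbp, the histone mRNA stem-loop binding protein, had log2 fold changes of 1.00 and 1.11, Cdc6 of 0.53 and 0.52, and Mcm3 of -0.44 and -0.40. Their median was -0.07 with JQ1 and -0.05 with RG6146.

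The nucleoside diphosphate kinases, which pass phosphate from ATP to other nucleoside diphosphates, passed in neither comparison. Nme2, the member with the most tags, had 726, 663 and 738 CPM in JQ1 libraries and 641, 652 and 735 CPM in RG6146 libraries, against 534, 604 and 687 CPM in DMSO libraries. The groups overlapped, with log2 fold changes of 0.22 ± 0.09 and 0.15 ± 0.09 (adjusted p = 0.0645 and 0.216). The JQ1 value passed without JQ1 library 2 (0.27, adjusted p = 0.0497) or DMSO library 3 (0.32, adjusted p = 0.0124), with no filter on low counts (0.23, adjusted p = 0.0122) and with the replicate number as a block (0.23, adjusted p = 0.0323). The RG6146 value passed without DMSO library 3 (0.25, adjusted p = 0.0480). Nme1 averaged 290 ± 11.9 CPM with JQ1 and 296 ± 5.34 CPM with RG6146, against 289 ± 20.1 CPM with DMSO. The readthrough gene Gm20390 spans the pair and shares 98.5% of the last Nme2 stretches. Its row held 26416 counts beside 25602 for Nme2. It tracked Nme2 by library, with 3570 counts beside 3465 in JQ1 library 1 and 2210 beside 2131 in DMSO library 2. Most of these tags may thus be the same reads counted in both rows. The level of Nme2 alone is uncertain, and so is that of Nme1, of whose last stretches Gm20390 shares 35.2%.

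Folate one-carbon metabolism held the largest change among the 36. Slc19a1 (ENSMUSG00000001436, chr10:77032241-77061002, plus strand), the reduced folate carrier that brings folates and methotrexate into cells, had 28.9, 29.9 and 31.3 CPM in JQ1 libraries and 32.0, 37.8 and 38.7 CPM in RG6146 libraries, against 60.7, 63.2 and 56.4 CPM in DMSO libraries. The treated and DMSO libraries stood far apart, with every RG6146 library above every JQ1 library. Slc19a1 fell 2.00-fold with JQ1, a log2 fold change of -1.00 ± 0.11, and 1.66-fold with RG6146, a log2 fold change of -0.73 ± 0.10 (adjusted p = 1.9e-06 and 5.5e-05). Both calls held in all 20 alternative analyses. Col18a1, which meets its 3′ end on the opposite strand, held 9 counts in all libraries together.

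Of the 5 folate genes 1, Slc19a1, passed in each comparison (20.0%), beside 29.0% of all tested genes with JQ1 and 26.0% with RG6146. None of the folate enzymes in the list passed in either comparison. Mthfd1l, the mitochondrial formate-producing synthetase and the most abundant of them, had 198, 188 and 175 CPM in JQ1 libraries and 143, 146 and 195 CPM in RG6146 libraries, against 129, 173 and 179 CPM in DMSO libraries. These groups overlapped, with log2 fold changes of 0.22 ± 0.15 and 0.01 ± 0.15 (adjusted p = 0.310 and 0.978). Shmt1 and Shmt2, the cytosolic and mitochondrial serine hydroxymethyltransferases, lay at -0.14 and 0.09 with JQ1 and at -0.19 and 0.05 with RG6146. Mthfd1, the cytosolic trifunctional enzyme, lay at -0.15 with JQ1 and -0.04 with RG6146.

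**Figure D2:**
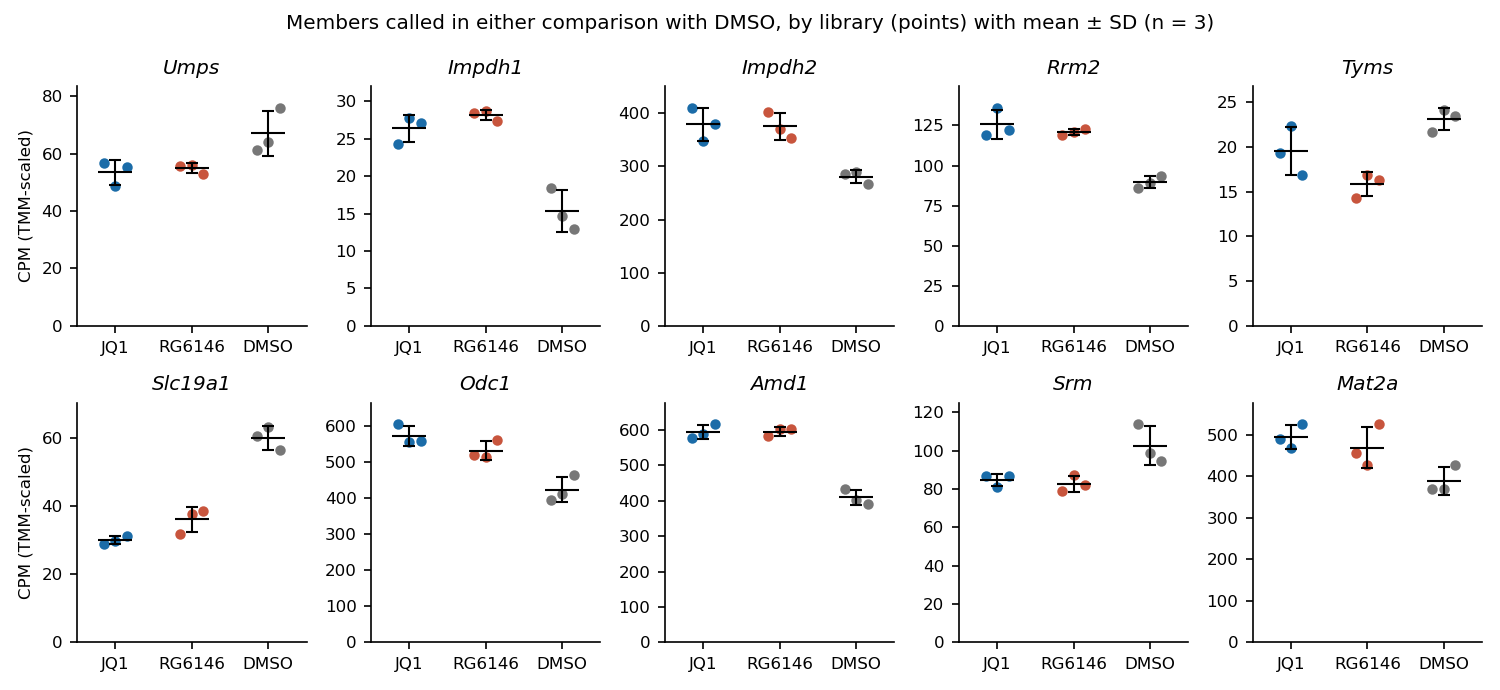
TMM-scaled CPM of the 10 members called in either comparison with DMSO, 1 point per library, with the mean and SD of the 3 libraries of each group; axes start at 0. Slc19a1 sits at 28.9 to 38.7 CPM in the 6 treated libraries and at 56.4 to 63.2 CPM in the DMSO libraries, and Impdh1, Impdh2, Rrm2, Odc1 and Amd1 show treated points above all DMSO points.

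In polyamine synthesis 3 of 4 genes passed in each comparison, 2 higher and 1 lower, beside 29.0% of all tested genes with JQ1 and 26.0% with RG6146; a list of 4 genes says little about the pathway as a whole. Odc1 (ENSMUSG00000011179, chr12:17544794-17551505, plus strand), the ornithine decarboxylase that opens the pathway, had 604, 555 and 557 CPM in JQ1 libraries and 518, 514 and 560 CPM in RG6146 libraries, against 395, 411 and 462 CPM in DMSO libraries. The groups did not overlap, and Odc1 rose by 0.44 ± 0.07 with JQ1 and 0.33 ± 0.07 with RG6146 (adjusted p = 2.6e-04 and 0.00317). Amd1 (ENSMUSG00000075232, chr10:40287458-40302186, minus strand), the S-adenosylmethionine decarboxylase that provides the propylamine donor, had 577, 590 and 616 CPM in JQ1 libraries and 582, 603 and 602 CPM in RG6146 libraries, against 434, 403 and 391 CPM in DMSO libraries. It rose by 0.54 ± 0.07 in each comparison, with no overlap (adjusted p = 9.9e-06 with JQ1 and 1.0e-05 with RG6146). Odc1 and Amd1, the regulated decarboxylases of the pathway, were thus both higher after either compound.

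The retrogene Amd2 shares 99.1% of the last Amd1 stretches, and how reads matching both were assigned is not given. With the 4217 counts of Amd2 added, the Amd1 log2 fold change was 0.37 ± 0.06 with JQ1 and 0.50 ± 0.06 with RG6146 (adjusted p = 2.9e-04 and 1.8e-05). The row of Amd2 alone was low in JQ1 library 3, with 118 counts, against 409 and 501 in the other JQ1 libraries and 418 to 546 in DMSO libraries.

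Srm (ENSMUSG00000006442, chr4:148591503-148594993, plus strand), the spermidine synthase, had 86.6, 81.1 and 86.5 CPM in JQ1 libraries and 78.8, 87.0 and 82.0 CPM in RG6146 libraries, against 114, 98.6 and 94.8 CPM in DMSO libraries. All treated libraries lay below all DMSO libraries, and DMSO library 1 was the highest. The log2 fold change was -0.28 ± 0.09 with JQ1 and -0.31 ± 0.09 with RG6146 (adjusted p = 0.0274 and 0.0149). Both calls were lost without DMSO library 1, at -0.19 (adjusted p = 0.143) with JQ1 and -0.23 (adjusted p = 0.0854) with RG6146. The JQ1 call was also lost without any 1 of the JQ1 libraries (adjusted p = 0.0561, 0.0780 and 0.0543 without libraries 1, 2 and 3), with DESeq2 (adjusted p = 0.0775) and with no filter on low counts (adjusted p = 0.0657), and the RG6146 call without RG6146 library 1 (adjusted p = 0.0679). Sms, the spermine synthase, averaged 211 ± 10.8 CPM with JQ1 and 202 ± 2.77 CPM with RG6146, against 188 ± 8.86 CPM with DMSO. Its treated libraries all lay above its DMSO libraries, with 200 CPM in RG6146 library 1 against 197 CPM in DMSO library 2. The Sms log2 fold changes of 0.16 and 0.11 did not pass (adjusted p = 0.105 and 0.311).

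**Figure D3:**
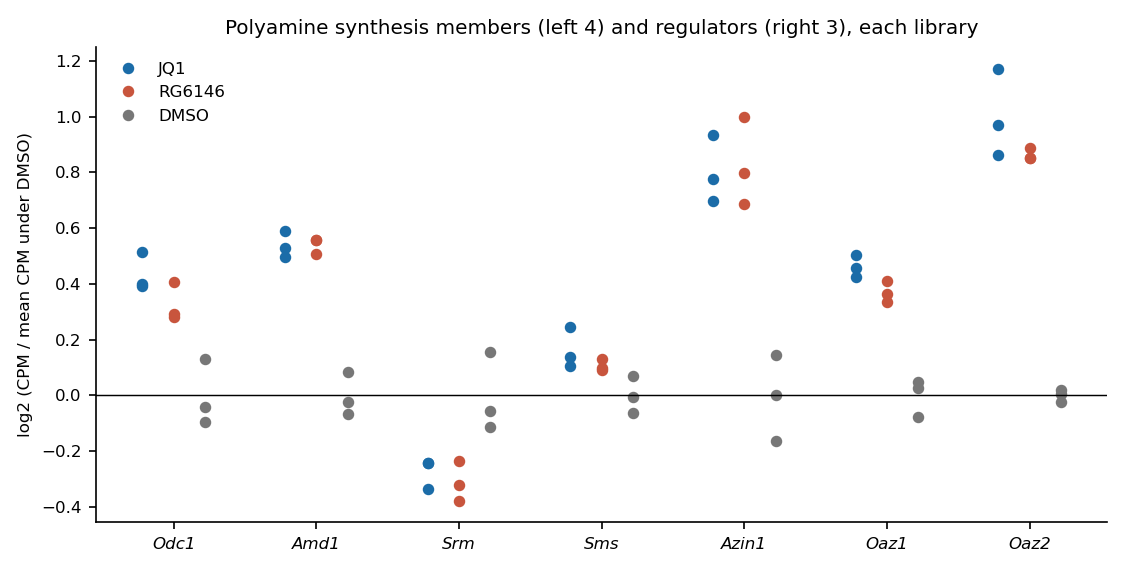
Log2 ratio of each library's CPM to the mean CPM under DMSO, for the 4 polyamine synthesis members and 3 regulators of ornithine decarboxylase; each point is 1 library of JQ1, RG6146 or DMSO. Treated points of Odc1, Amd1, Azin1, Oaz1 and Oaz2 lie above the DMSO points and those of Srm below them. Those of Sms lie above the DMSO points by a small margin.

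Among 29 other polyamine and methionine genes, 19 were tested, and 3 rose and none fell in each comparison (15.8%). That was below the 29.0% of all tested genes called with JQ1 and the 26.0% called with RG6146. The 3 were regulators of ornithine decarboxylase. The alternative analyses were read out by gene for the members only, and so not for these 3. Oaz2, an antizyme that binds the enzyme and sends it for degradation, had 48.6, 55.9 and 45.1 CPM in JQ1 libraries and 44.8, 45.9 and 44.8 CPM in RG6146 libraries, against 25.1, 24.9 and 24.4 CPM in DMSO libraries. It rose by 1.01 ± 0.11 with JQ1 and 0.86 ± 0.11 with RG6146 (adjusted p = 1.9e-06 and 1.2e-05). Oaz1, the abundant antizyme, had 921, 873 and 892 CPM in JQ1 libraries and 820, 836 and 863 CPM in RG6146 libraries, against 616, 662 and 672 CPM in DMSO libraries. It rose by 0.46 ± 0.06 and 0.37 ± 0.06 (adjusted p = 2.4e-05 and 2.6e-04). Azin1, the antizyme inhibitor, which binds antizymes in place of the enzyme, had 132, 147 and 125 CPM in JQ1 libraries and 134, 154 and 124 CPM in RG6146 libraries, against 85.1, 68.8 and 77.1 CPM in DMSO libraries, a rise of 0.81 ± 0.10 and 0.83 ± 0.10 (adjusted p = 1.2e-05 and 8.6e-06). Transcripts of Odc1, Oaz1, Oaz2 and Azin1 were therefore all higher after either compound. Oaz1, Oaz2 and Azin1 were named because they were the called genes of their list, so their shared direction is no separate evidence. The list also held the antizyme gene Oaz3 and the antizyme inhibitor gene Azin2, which were not among the 3 called genes. The calls of Odc1 and Amd1, like those of Impdh2 and Rrm2, were lost when libraries were scaled by ERCC spike-in counts alone, at log2 fold changes of 0.41 and 0.54 with JQ1 and 0.35 and 0.58 with RG6146, each with a standard error of 0.23 (adjusted p = 0.302 and 0.124 with JQ1, 0.421 and 0.0946 with RG6146).

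The methionine cycle held 1 called gene of 3 in each comparison (33.3%). That was near the 29.0% of all tested genes called with JQ1 and the 26.0% called with RG6146. Mat2a (ENSMUSG00000053907, chr6:72432799-72439558, minus strand), which makes S-adenosylmethionine, had 490, 467 and 526 CPM in JQ1 libraries and 455, 427 and 525 CPM in RG6146 libraries, against 370, 368 and 427 CPM in DMSO libraries. The lowest RG6146 library was close to the highest DMSO library. Mat2a rose by 0.35 ± 0.09 with JQ1 and 0.27 ± 0.09 with RG6146 (adjusted p = 0.00532 and 0.0256). The RG6146 call was lost without RG6146 library 3 (0.18, adjusted p = 0.141), DMSO library 1 (0.24, adjusted p = 0.0883) or DMSO library 2 (0.24, adjusted p = 0.106), and also with limma-voom (adjusted p = 0.0529) and without robust moderation (adjusted p = 0.0635). Scaling by library size without TMM ended both Mat2a calls, at 0.21 with JQ1 (adjusted p = 0.0618) and 0.16 with RG6146 (adjusted p = 0.173). Mat2b, its regulatory subunit, lay at -0.10 and -0.02 and did not pass.

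Ahcy, which clears S-adenosylhomocysteine, had 208, 166 and 83.6 CPM in JQ1 libraries and 160, 189 and 162 CPM in RG6146 libraries, against 142, 148 and 132 CPM in DMSO libraries. JQ1 library 3 stood below all other libraries, which gave a standard error of 0.31 and log2 fold changes of 0.12 and 0.28 that did not pass. Without JQ1 library 3 the JQ1 value was 0.41 and passed (adjusted p = 0.0133). Gm4737, a copy that shares 33.9% of the last Ahcy stretches, had 938 counts in JQ1 library 1 and 222 and 263 in JQ1 libraries 2 and 3, and with it added the JQ1 value was -0.05 ± 0.35.

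Of the 107 listed genes of these pathways outside the 36 that had a row, 72 were tested; 8 rose and 8 fell with JQ1 (22.2%), and 6 rose and 7 fell with RG6146 (18.1%), beside 29.0% and 26.0% of all tested genes. In folate and serine metabolism, 2 of 14 rose and 2 fell with JQ1 (28.6%), and 2 rose and 1 fell with RG6146 (21.4%). Mthfd2, the mitochondrial methylenetetrahydrofolate dehydrogenase, had 221, 200 and 208 CPM in JQ1 libraries and 190, 193 and 210 CPM in RG6146 libraries, against 108, 129 and 127 CPM in DMSO libraries. It rose by 0.79 ± 0.08 and 0.71 ± 0.08 (adjusted p = 2.3e-06 and 7.9e-06), while Slc19a1 fell and Shmt2 and Mthfd1l, of the same mitochondrial route, did not pass. Mtrr, which keeps methionine synthase active, was at 5.73 to 7.11 CPM with JQ1 and 6.79 to 8.32 CPM with RG6146, against 15.3 to 20.2 CPM with DMSO, with log2 fold changes of -1.45 and -1.20 (adjusted p = 1.8e-05 and 1.1e-04). Fpgs, which adds glutamates to folates and so retains them in cells, lay at 0.27 (adjusted p = 0.0987) and 0.36 (adjusted p = 0.0331).

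Of 19 other pyrimidine genes, 1 rose and 5 fell with JQ1 (31.6%, near the 29.0% of all genes), and none rose and 4 fell with RG6146 (21.1%, beside 26.0%). Samhd1, which breaks down deoxynucleoside triphosphates, had 73.8, 74.4 and 72.9 CPM in JQ1 libraries and 75.9, 87.2 and 74.9 CPM in RG6146 libraries, against 116, 107 and 115 CPM in DMSO libraries. It fell in both, with log2 fold changes of -0.61 ± 0.09 and -0.51 ± 0.09 (adjusted p = 3.7e-05 and 2.7e-04). Dctd, the dCMP deaminase that feeds dUMP to thymidylate synthase, was at 5.22 to 7.03 CPM with JQ1 and 6.30 to 7.95 CPM with RG6146, against 13.4 to 15.0 CPM with DMSO, with log2 fold changes of -1.19 and -0.91 (adjusted p = 2.0e-04 and 0.00185). Nme7, a kinase-family member known from microtubule structures, lay at -1.36 and -1.49 (adjusted p = 3.3e-06 and 1.4e-06).

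Of 20 other purine genes, 2 rose and 1 fell with JQ1 (15.0%, beside 29.0% of all genes), and 1 rose and 2 fell with RG6146 (15.0%, beside 26.0%). Ampd2, an AMP deaminase, had 36.7, 29.6 and 33.6 CPM in JQ1 libraries and 27.5, 27.5 and 32.4 CPM in RG6146 libraries, against 42.2, 48.7 and 39.6 CPM in DMSO libraries. Its log2 fold changes were -0.38 ± 0.12 and -0.58 ± 0.12 (adjusted p = 0.0234 and 0.00179). Nt5c2, a cytosolic nucleotidase that acts on IMP and GMP, lay at 0.28 (adjusted p = 0.113) and 0.50 (adjusted p = 0.00661). Gmpr2, the GMP reductase that returns GMP to IMP, lay at -0.60 (adjusted p = 0.0647) and -0.92 (adjusted p = 0.00905). These Gmpr2 values were opposite in direction to those of the IMP dehydrogenases, and the JQ1 value did not pass. For Nt5c2 and Gmpr2 the difference between the compounds did not pass (adjusted p = 0.999 each).

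**Figure D4:**
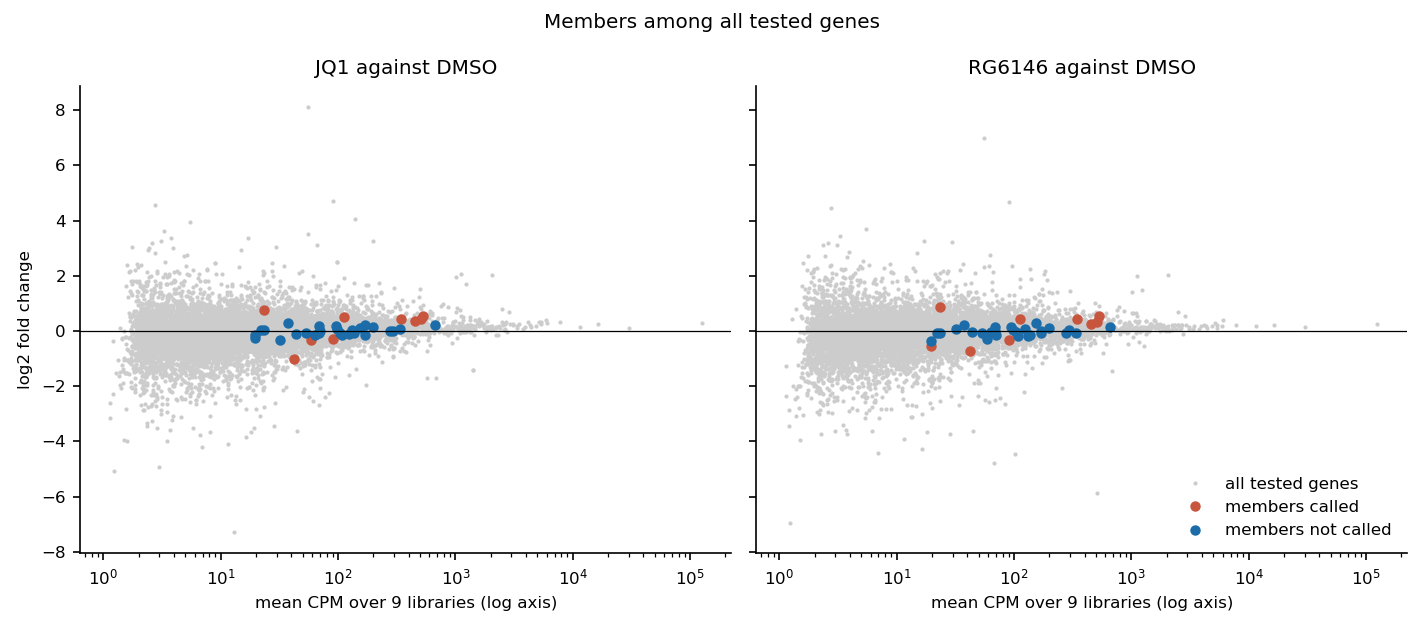
Log2 fold change against mean CPM over the 9 libraries (log axis) for all 11002 tested genes in grey, members called in red and members not called in blue, with JQ1 on the left and RG6146 on the right. Most members lie to the right of the bulk of genes and close to the line at 0.

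RG6146 and JQ1 were also compared directly, at doses that differ, 2.5 µM and 1 µM. None of the 36 members passed, against 0.00909% of all tested genes, which is 1 gene, the non-member Gm12693 (1.52, adjusted p = 0.0318). At an unadjusted p below 0.05, edgeR gave 2 members, 5.56% of them beside 3.86% of all genes, DESeq2 gave 1 and limma-voom 3, and none of these tools called a member after adjustment. The 2 were Prps2, higher with RG6146 by 0.42 (95% interval 0.15 to 0.68), and Slc19a1, higher with RG6146 by 0.27 (0.04 to 0.50), each with an adjusted p of 0.999 in edgeR's quasi-likelihood test. For Slc19a1 this is the weaker fall with RG6146. For 30 of the 36 members the 95% interval of the difference stayed within 0.5 on the log2 scale in either direction. For the remaining 6, Dhodh, Prps2, Tyms, Tk1, Mthfd1l and Ahcy, a difference of that size lay inside the interval. A p that misses the threshold does not show that the compounds act alike.

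**Figure D5:**
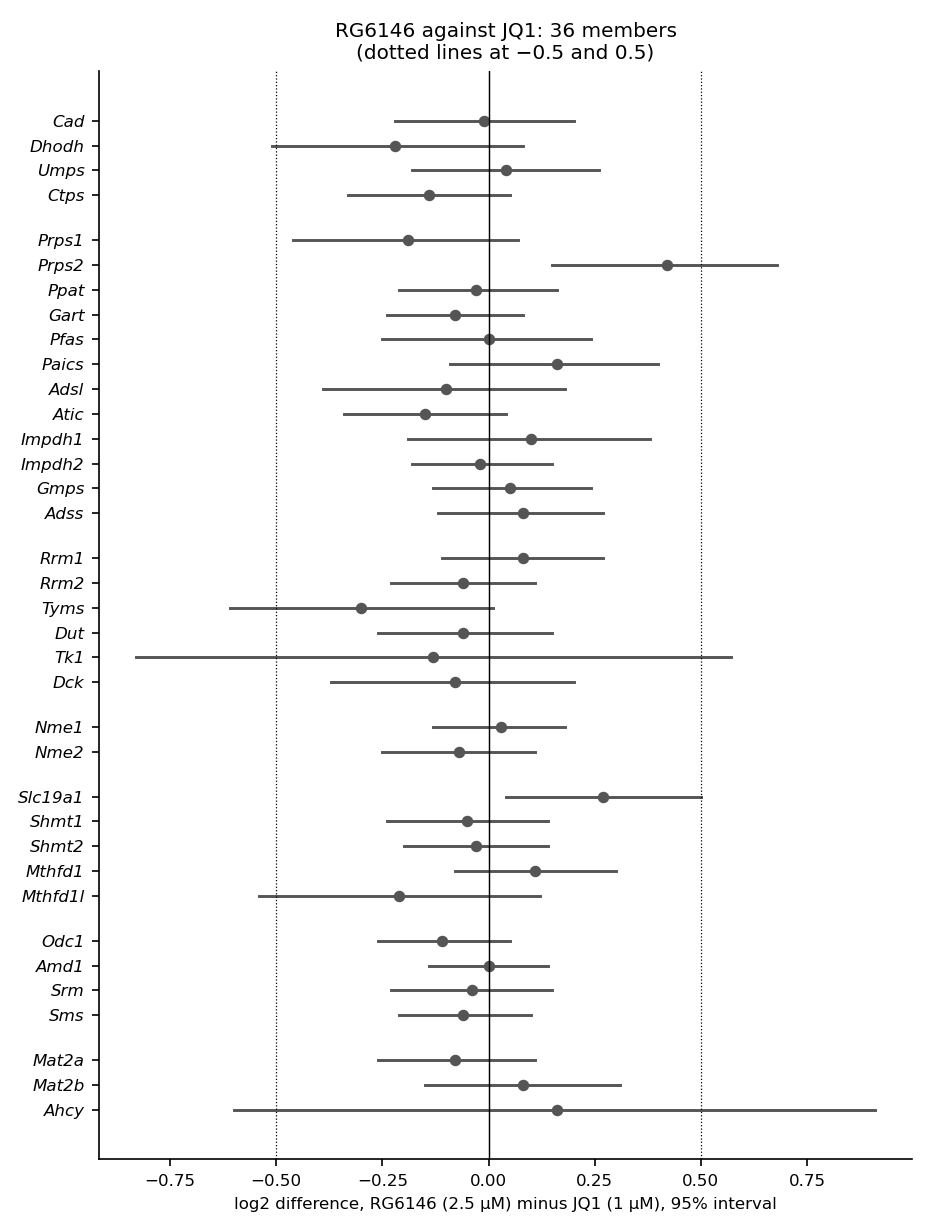
Log2 difference between RG6146 at 2.5 µM and JQ1 at 1 µM for each of the 36 members, with its 95% interval; dotted lines mark a difference of 0.5 in either direction. Prps2 and Slc19a1 are the members whose intervals leave out 0, and Tk1 and Ahcy have the widest intervals.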

How the data were processed

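RNA from 9 libraries of cultured Eµ-Myc lymphoma clone 4242 was measured by QuantSeq 3′ mRNA sequencing with single-end reads of 75 bases, per the labels. The values deposited by the authors are whole-number counts of reads for each gene, with no normalisation. The submitters' processing notes name HISAT2 2.1.0, cutadapt 1.7, bcl2fastq 2.17.1.14, FastQC 0.11.5, limma, Subread with featureCounts, and mm10. How strand and multiply matching reads were treated is not given in the sources used here. Tags from opposite strands of a locus may therefore be mixed. Those of overlapping genes may be counted for each gene, and those of near copies may be shared out or lost.

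Of 43629 gene rows, 42548 had a symbol in GENCODE M21; the 1081 without one stayed in the fit. The 92 ERCC spike-in rows were left out of library sizes. Genes were kept by filterByExpr (minimum count 10), scaled by TMM and tested in R 4.3.3 with edgeR 4.0.16: a quasi-likelihood fit with robust moderation of all 9 libraries with group as its only term, and Benjamini-Hochberg adjustment over all 11002 tested genes, with calls at 0.05. Errors on log2 fold changes are model standard errors, and intervals are 95% Wald intervals. DESeq2 1.42.0, limma-voom (limma 3.58.1), other scalings and filters, a replicate block and leaving out libraries were alternatives.

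No library was a repeat of another: chi-square per degree of freedom was 6.28 to 15.2 over the 9 pairs of replicates. Members called in either comparison with DMSO, and the most abundant member of each pathway, were given in every library, and the other members mostly by group means or fold changes. Prps2, Dhodh, Tk1 and Ahcy were shown by library after their values were seen. Of each list of other pathway genes, the 3 called genes with the smallest p over both comparisons with DMSO were named. The members and lists were chosen with earlier results of these data known.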

Additional observations from a re-analysis of the deposited data

How the results depend on the processing

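None of 20 other settings, nor 1 chosen after seeing the data that adds the counts of near-identical copies, reversed a called member. Slc19a1 and Impdh1 kept their calls in both comparisons under all 20, and Impdh2, Rrm2, Odc1 and Amd1 lost theirs under ERCC scaling alone, which left 2 members called with JQ1 and 2 with RG6146, against 9 and 9, and 1196 and 1082 genes called in all, against 3188 and 2863. Under it the log2 fold changes of these 4 with JQ1 were 0.43, 0.47, 0.41 and 0.54, each with a standard error of 0.23. The ERCC share of gene counts followed the replicate number: 1.37% to 1.54% in libraries numbered 1, 1.19% to 1.23% in those numbered 2, and the lowest of each group in those numbered 3 (0.968% with JQ1 and 0.982% with RG6146). With that number as a block, ERCC scaling gave 8 and 8 members. Otherwise the members called numbered 7 to 13 with JQ1 and 8 to 13 with RG6146, and 8 to 10 and 7 to 10 when 1 library was left out, with 1 to 4 lower in each. The highest, 13 in each, came from library size scaling without TMM, with 5 higher and 8 lower; it moved the median of all genes to -0.13 with JQ1 and -0.10 with RG6146, and 916 and 883 genes were then called higher, against 1496 and 1375. DESeq2 called 1902 genes with RG6146, and 7 and 8 members. With DMSO library 2 and JQ1 library 2 left out together, 7 and 8 members passed. Between RG6146 and JQ1, no alternative called a member; the single gene called became 4 under ERCC scaling, 17 with no filter on low counts, and 0 with limma-voom, with a mean of at least 10 CPM, with no robust moderation, with the replicate block or without both libraries named above, and 0 to 2 when 1 library was left out. The cause of these changes was not tested. Same-numbered libraries of different groups had correlations of -0.06 to 0.10 in their deviations from the group means, against -0.09 to 0.07 for other numbers, so the numbers were not treated as pairs, although the ERCC share followed them; as a replicate block they gave 3093, 2790 and 0 genes and 10, 9 and 0 members for JQ1, RG6146 and the difference between them. At 3 libraries a group, the median 95% interval of a member with JQ1 reached 0.20 on the log2 scale to either side, so smaller changes were mostly not detectable. These intervals are not adjusted for the number of genes, whereas calls are, so some larger changes also missed the threshold. With JQ1, Nme2 at 0.22 (95% interval 0.04 to 0.41) was not called.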
